A study of Mus musculus with 24 samples.

Results

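The genes described here are 9 that B lymphocytes use: Vpreb3, Fcer2a, Cr2, Cd79a, Cd79b, Ms4a1, Cd22, Pax5 and Blk. They were measured in splenic CD11c+ dendritic cells (DCs) of BALB/c mouse pups. The genes were taken by name, with earlier results of these data known, so that their counts beside all probe sets are a description. Every probe set annotated with 1 of these symbols and no other was kept. This gave 12 of 22626 probe sets, and 9 of 12393 genes with such a probe set. Fcer2a, Ms4a1 and Cd22 had 2 probe sets each, of which the first is the one of higher mean signal, and the other 6 genes had 1.

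A total of 24 Mouse430A 2.0 arrays were analysed. Asthma-at-risk pups were born to mothers that had been injected with ovalbumin (OVA) and alum as neonates, had later inhaled OVA aerosol and were then mated with normal males, while normal pups were born to control mothers. Stimulated pups had been injected once into the peritoneum with OVA (5 µg) and alum (1 mg), on day 3 of life by the labels and on day 4 by the study's methods, and naïve pups had received none. The spleens were taken at day 14, and CD11c+ cells were isolated magnetically, with over 95% positive for both CD11c and MHC-II by the methods. The array numbers in the labels form 2 runs, AF76 to AF91 and AF118 to AF127, which were taken as the methods' Set 1 and Set 2, since the labels do not name the sets. Set 1 held stimulated asthma-at-risk DCs (n = 4), stimulated normal DCs (n = 4), naïve asthma-at-risk DCs (n = 4) and naïve normal DCs (n = 3). Set 2, amplified with a NuGEN kit, held stimulated asthma-at-risk DCs (n = 5) and stimulated normal DCs (n = 4). The methods call the arrays biological replicates without saying how many pups gave each RNA, so p-values measure the spread between arrays.

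B cells recognise antigen with a surface antibody whose signal is carried by the Cd79a and Cd79b proteins. Blk and other Src family kinases pass the signal on, Cd22 dampens it, and Cr2 (complement receptor 2, CD21) lowers the threshold for it. Vpreb3 is made by developing and newly formed B cells, Ms4a1 encodes CD20, Fcer2a encodes the low-affinity IgE receptor CD23 of mature follicular B cells, and Pax5 is the transcription factor that holds cells in the B lineage. Follicular dendritic cells, a stromal cell of B cell follicles that is unrelated to DCs, also carry Cr2. In sorted bulk cells, fewer cells of a type and less RNA per cell cannot be told apart.

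Promoter sequences of 6 of the 9 genes, from 250 bases before to 50 bases after a start site, were matched in RefSeq's tables (GRCm38.p6). The genes lie on chromosome 1 (Cr2, 195136811 to 195176880), 4 (Pax5), 7 (Cd79a, and Cd22 at 30865404 to 30880342), 8 (Fcer2a, 3680280 to 3694174), 10 (Vpreb3, 75943024 to 75949657), 11 (Cd79b), 14 (Blk) and 19 (Ms4a1). The promoters of the 4 genes on which the results turn most are shown, read 5′ to 3′ on the gene's strand. Capitals mark an octamer in Vpreb3 and an EBF motif in Cd22.

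Vpreb3 (chr10:75948050-75948349, plus strand): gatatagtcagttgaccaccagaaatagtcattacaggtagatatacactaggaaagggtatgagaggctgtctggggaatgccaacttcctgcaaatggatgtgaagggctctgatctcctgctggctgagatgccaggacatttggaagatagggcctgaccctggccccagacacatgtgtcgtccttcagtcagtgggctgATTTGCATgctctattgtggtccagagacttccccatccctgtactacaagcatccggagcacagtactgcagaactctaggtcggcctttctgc
Fcer2a (chr8:3694125-3694424, minus strand): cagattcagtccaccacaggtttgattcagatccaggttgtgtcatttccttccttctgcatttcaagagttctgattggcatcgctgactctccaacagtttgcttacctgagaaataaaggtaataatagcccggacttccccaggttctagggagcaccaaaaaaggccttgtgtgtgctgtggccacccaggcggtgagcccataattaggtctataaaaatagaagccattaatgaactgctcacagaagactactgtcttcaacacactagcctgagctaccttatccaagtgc
Cr2 (chr1:195176670-195176969, minus strand): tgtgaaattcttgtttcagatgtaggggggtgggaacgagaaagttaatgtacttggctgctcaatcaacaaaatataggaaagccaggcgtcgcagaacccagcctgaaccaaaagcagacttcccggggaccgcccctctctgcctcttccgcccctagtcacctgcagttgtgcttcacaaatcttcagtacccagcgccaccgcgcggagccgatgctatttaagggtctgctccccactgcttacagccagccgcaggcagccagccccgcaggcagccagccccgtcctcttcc
Cd22 (chr7:30878979-30879278, minus strand): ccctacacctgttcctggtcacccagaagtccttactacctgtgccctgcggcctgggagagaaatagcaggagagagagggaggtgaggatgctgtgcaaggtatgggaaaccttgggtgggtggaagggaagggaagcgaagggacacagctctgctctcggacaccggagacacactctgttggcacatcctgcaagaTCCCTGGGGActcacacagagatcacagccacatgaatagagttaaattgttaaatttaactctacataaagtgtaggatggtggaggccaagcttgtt

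The octamer ATGCAAAT, the word bound by Oct factors in antibody gene promoters, was searched on both strands. It was found in the Vpreb3 window, as its reverse complement ATTTGCAT, starting at base -45 from the start site, and in 1.74% of 32851 mouse promoters of this length. The EBF motif, a palindrome bound by early B cell factor, was searched in the same way and found in the Cd22 window at base -49 and in 0.904% of all promoters. The E box CANNTG was far commoner, at 72.3% of all promoters, and was found 5 times in the Vpreb3 window, 3 times in that of Cr2 and 2 times in that of Cd22. Fcer2a had 3 listed start sites, and the window shown, at the site farthest upstream, held 1 E box and neither other motif. The Cr2 window held neither the octamer nor the EBF motif. These matches describe letters only.

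RMA signals are given on the log2 scale, on which a difference of 1 is a doubling. A probe set was called where its limma p, adjusted over all 22626 probe sets by the Benjamini-Hochberg method, was at most 0.05 and its log2 difference was at least 0.32. B cell transcripts were readily measured in these CD11c+ preparations, with the exception of Pax5. Over the 24 arrays, Cd79a lay between 11.03 and 12.65, Cd79b between 11.99 and 13.28 and the first Ms4a1 probe set between 11.33 and 12.62. The Pax5 probe set lay between 4.84 and 5.39, near the lower quartile of its arrays (5.00 to 5.09), so that a change in Pax5 could hardly have been seen. The 11 conventional DC markers measured averaged 11.79 to 12.23 per array. Mean signals of the 12 probe sets in stimulated normal DCs were higher in Set 2 than in Set 1 by 0.022 (Pax5) to 1.47 (the second Fcer2a probe set), and were not tested between the sets, which were preprocessed separately by the methods. Naïve normal array AF79 stood apart from the rest of Set 1 in the gap between the probe sets of Fcer2a and of Cd22, and the differences of single genes that changed most or lost a call without it are given with and without it.

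**Figure D1:**
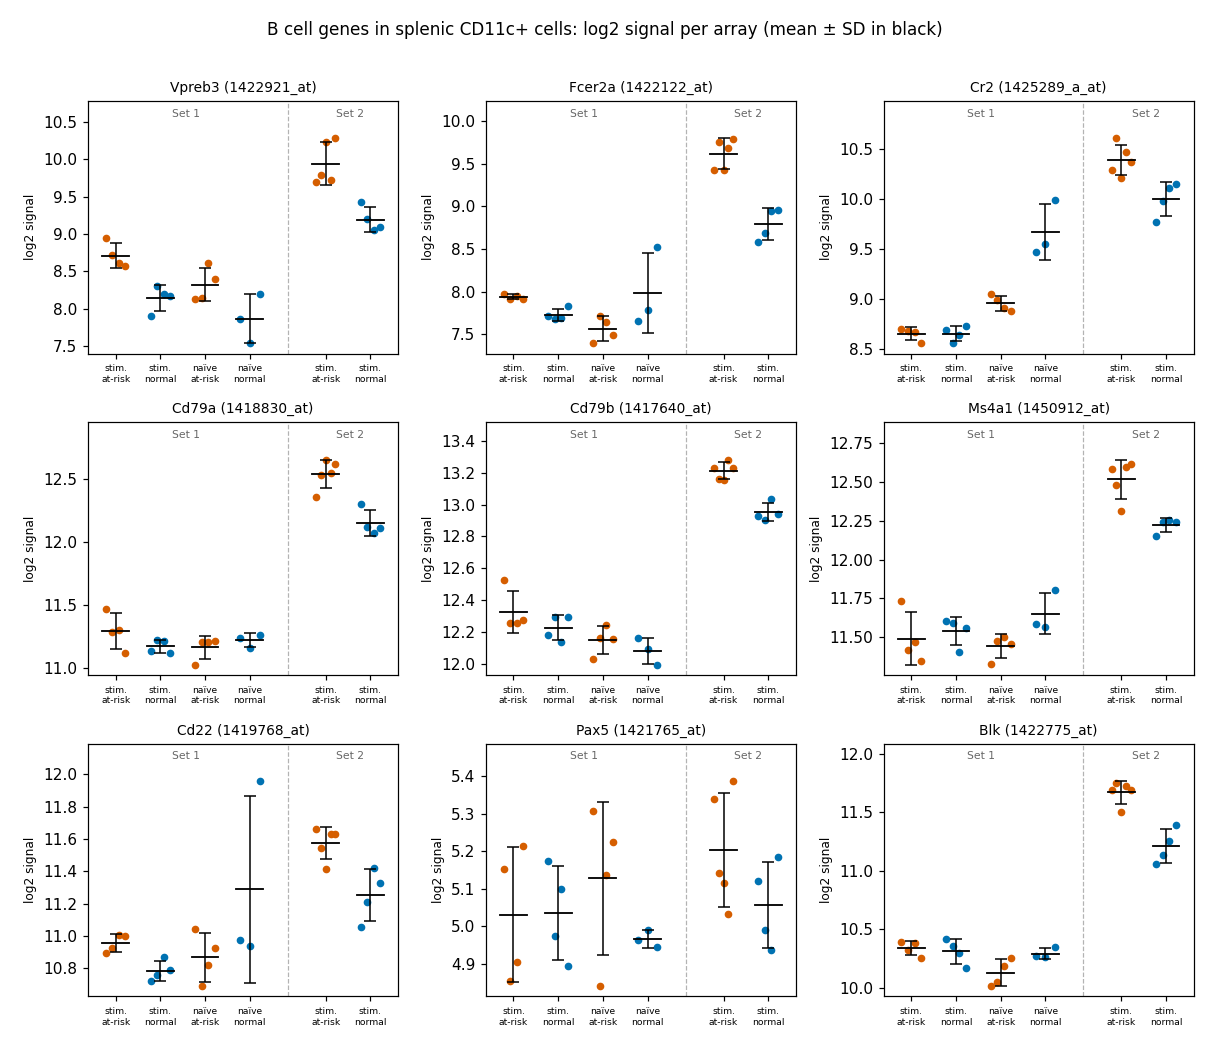
RMA signal (log2, vertical axis) of the 9 B cell genes in each array, by the probe set of highest mean, with asthma-at-risk DCs in orange, normal DCs in blue, and the group mean and SD in black. Vpreb3 and Fcer2a are higher in stimulated asthma-at-risk DCs than in stimulated normal DCs in both sets without overlap, and Cr2 is highest in Set 1 in the 3 naïve normal arrays.

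The first question was whether maternal asthma changed the genes in stimulated DCs. Vpreb3 and Fcer2a were higher in asthma-at-risk DCs over both sets, by 0.66 ± 0.10 and 0.53 ± 0.10 (log2, SE, 9 against 8 arrays, set as a term), which are folds of 1.58 and 1.45. Their limma adjusted p were 0.0031 and 0.0112. The Fcer2a value is that of 1422122_at, and the second probe set, 1451713_a_at, was not called (0.24 ± 0.15, SE, adjusted p = 0.445). All 12 probe sets had positive differences, against 46.8% of all probe sets, and their median was 0.25, against -0.0079 over all. By both thresholds 2 of 12 were called higher, against a background of 1.31%, and none was called lower, against 0.415%. Both Cd22 probe sets (0.25, adjusted p = 0.0225, and 0.30, adjusted p = 0.00712) and Cd79a (0.26, adjusted p = 0.0332) passed the adjusted p but not the fold. Both calls were lost in a fit with no term for set (adjusted p = 0.338 for Vpreb3 and 0.572 for Fcer2a), and the Fcer2a call with set as a random block (adjusted p = 0.112).

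Vpreb3 encodes a surrogate light chain-like protein of the pre-B cell stage. In Set 1 its signals were 8.94, 8.72, 8.61 and 8.57 in stimulated asthma-at-risk DCs, against 7.91, 8.31, 8.19 and 8.17 in stimulated normal DCs. The lowest asthma-at-risk array lay above the highest normal one. The difference of 0.57 ± 0.14 (SE) was not called in Set 1 alone (adjusted p = 0.223). Nor was it called with naïve array AF79 left out of the fit (0.57 ± 0.12, SE, adjusted p = 0.097). In Set 2 its signals were 9.70, 9.79, 10.23, 9.72 and 10.28 in asthma-at-risk DCs, against 9.43, 9.19, 9.05 and 9.10 in normal DCs. Again no array of either group lay within the range of the other, and the difference was 0.75 ± 0.14 (SE, fold 1.68, adjusted p = 0.0171). The call was lost without AF119 (adjusted p = 0.061) or AF120 (adjusted p = 0.0664), both normal. The difference between the sets' effects on Vpreb3 was 0.18 (95% CI -0.22 to 0.59, adjusted p = 0.632).

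Fcer2a, the CD23 gene, showed a larger maternal effect in Set 2 than in Set 1. The probe set 1422122_at read 9.42, 9.76, 9.42, 9.69 and 9.80 in asthma-at-risk DCs of Set 2, against 8.58, 8.69, 8.94 and 8.95 in normal DCs. In Set 1 it read 7.98, 7.91, 7.95 and 7.92 in stimulated asthma-at-risk DCs, against 7.71, 7.67, 7.69 and 7.83 in stimulated normal DCs. The groups did not overlap in either set, but stood farther apart in Set 2. The effect was 0.83 ± 0.11 in Set 2 (SE, fold 1.77, adjusted p = 0.00294) and 0.21 ± 0.14 in Set 1 (adjusted p = 0.851). With AF79, a naïve array, left out of the fit, the Set 1 effect was 0.21 ± 0.07 (SE, adjusted p = 0.257). The difference of the effects was called at 0.62 ± 0.13 (SE, adjusted p = 0.0259), the single member called of 12, against 0.659% of all probe sets called higher, and none was called lower, against 1.13%. This call was lost without any 1 of AF86, AF87, AF89, AF91, AF118, AF119 or AF126 (adjusted p from 0.0513 to 0.0667) and in a fit to all 24 arrays (adjusted p = 0.109). The other Fcer2a probe set, 1451713_a_at, read 7.41 in asthma-at-risk array AF123, against 8.31 to 8.59 in the other 4, and 7.71 to 7.88 in normal DCs. Its effect in Set 2 was 0.45 ± 0.21 (SE, adjusted p = 0.252), and 0.66 without AF123, where it was called (adjusted p = 0.00182). In Set 1 this probe set differed by 0.0095.

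**Figure D2:**
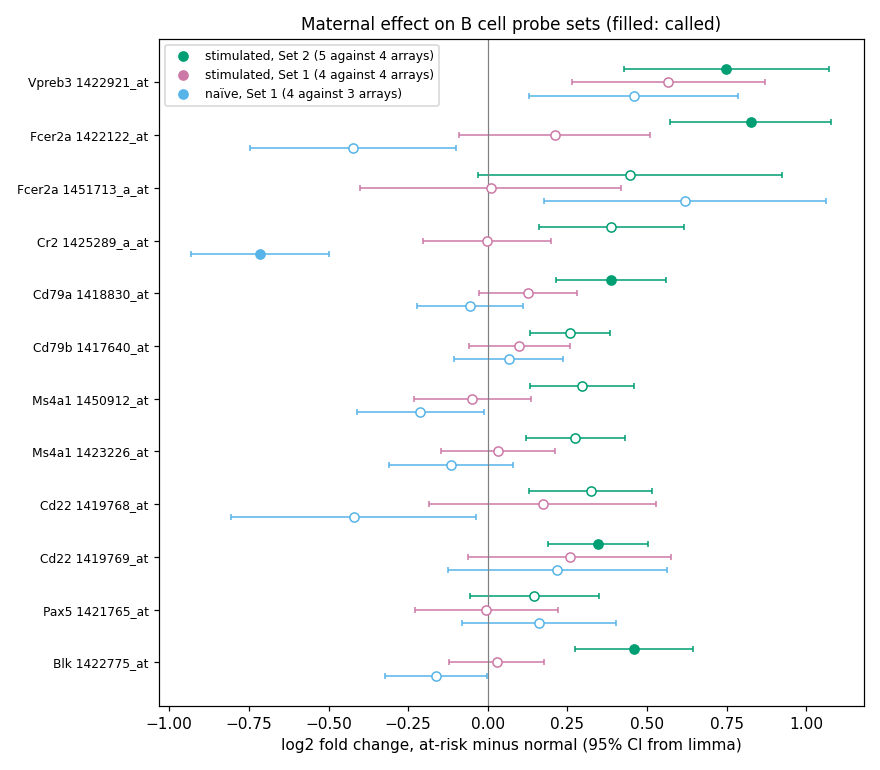
Log2 fold change of asthma-at-risk over normal DCs (horizontal axis) for the 12 probe sets, with 95% confidence intervals from limma, in stimulated DCs of Set 2, stimulated DCs of Set 1 and naïve DCs; filled points were called. In Set 2 all 12 points lie right of 0 and 5 are filled, in Set 1 none is filled, and in naïve DCs Cr2 alone is filled, at -0.71.

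Within Set 2, 5 of 12 probe sets were called higher, against 2.58% of all probe sets, and none lower, against 2.04%. The median difference was 0.37, against -0.0038 over all. Blk, the Src family kinase of B cells, read 11.69, 11.75, 11.50, 11.72 and 11.69 in asthma-at-risk DCs, against 11.06, 11.13, 11.25 and 11.39 in normal DCs (0.46 ± 0.08, SE, adjusted p = 0.012). Its groups did not overlap, and its lowest asthma-at-risk array was AF125. Cd79a, a signalling chain of the B cell receptor, was higher by 0.39 (adjusted p = 0.0199), and its partner Cd79b by 0.26 (adjusted p = 0.0304), which is under the fold threshold. Cd22, the inhibitory receptor, was called by 1 of its 2 probe sets (0.35, adjusted p = 0.0222) and not by the other (0.32, adjusted p = 0.0649). The Ms4a1 probe sets differed by 0.29 (adjusted p = 0.0494) and 0.27 (adjusted p = 0.0528), and Cr2 by 0.39 (adjusted p = 0.0612). Pax5 differed by 0.15 (95% CI -0.057 to 0.35). In 9 of 12 probe sets every asthma-at-risk array lay above every normal one, against 5.67% of all probe sets. The count called was 1 without AF119 and 2 without AF120, both normal, 3 without AF127 and 8 without AF125, both asthma-at-risk. Fcer2a 1422122_at alone was called without AF119, that probe set and Blk without AF120, and both of these and Vpreb3 without AF127. The Cd22 call was also lost without AF118 (adjusted p = 0.068) and without AF124 (0.31, adjusted p = 0.0431).

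In Set 1, none of the 12 was called, against 0.0707% of all probe sets called higher, and 1 had an unadjusted limma p under 0.05. With AF79 left out of the fit none was called either, and the limma adjusted p were lowest for Vpreb3 (0.097) and Cd22 1419769_at (0.132). The median difference was 0.066, against -0.0082 over all. The asthma-at-risk arrays lay above the normal ones without overlap in 4 probe sets, against 2.76% of all. These were Vpreb3, the first Fcer2a probe set and both of Cd22. In both sets at once, 3 of 12 did so (Vpreb3, Fcer2a 1422122_at and Cd22 1419769_at), against 0.552% of all probe sets. The remaining genes had small differences in Set 1. They were 0.13 for Cd79a, 0.099 for Cd79b, 0.027 for Blk, -0.048 and 0.032 for the Ms4a1 probe sets, -0.0026 for Cr2 and -0.0044 for Pax5.

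Other B cell genes, from lists chosen with earlier results of these data known, also differed in Set 2. Of 16 measured genes of mature B cell surface and antibody, 4 were called higher in asthma-at-risk DCs and none lower, against 2.58% of all probe sets called higher and 2.04% lower. They were Ralgps2 (0.70, adjusted p = 0.00334), Cd55 (0.60, adjusted p = 0.00334), Cxcr5, the receptor for the follicle chemokine Cxcl13 (0.79, adjusted p = 0.00835), and Tnfrsf13c, the receptor for the survival factor BAFF (0.54, adjusted p = 0.0108). The antibody heavy chain gene Ighm read 13.82 to 13.97 in asthma-at-risk DCs, against 13.76 to 13.95 in normal DCs, and was not called. Of 10 transcription factors, Ebf1 (0.37, adjusted p = 0.0132) and Foxo1 (0.35, adjusted p = 0.0355) were called, both higher. Of 16 receptor signalling genes, 1 was called, the inhibitory receptor Cd72 (0.44, adjusted p = 0.0143), also against 2.58%. The median of the mature B cell list was 0.11, of the factors 0.13 and of the signalling genes 0.042, against -0.0038 over all probe sets.

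Genes of early B cells were looked at beside Vpreb3. Over both sets of stimulated DCs, 2 of 8 were called higher in asthma-at-risk DCs and none lower, against 1.31% of all probe sets called higher and 0.415% lower. These were Vpreb1, a surrogate light chain gene (0.70 ± 0.17, SE, adjusted p = 0.0397), and Cd93 (0.58 ± 0.08, SE, adjusted p = 0.0031). Cd93 is a marker of immature B cells that endothelial and myeloid cells also express. Igll1, whose product pairs with that of Vpreb1, was not called (-0.17, adjusted p = 0.314), and neither were Rag1 (0.31) and Rag2 (0.42), the antigen receptor recombinases. The median of the 8 genes was 0.37, against -0.0079 over all probe sets, with 5 differences positive and 3 negative. In Set 2 alone, 1 of the 8 was called higher and 1 lower, against 2.58% and 2.04% of all probe sets.

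Markers of other cells moved with maternal status in Set 2 as well, where 2.58% of all probe sets were called higher and 2.04% lower. Of 10 platelet markers, 9 were called higher in asthma-at-risk DCs, and their mean signal was 7.95 to 9.26, against 6.57 to 6.82 in normal DCs. Erythroid markers had 2 of 8 called higher (mean 9.25 to 10.90, against 8.63 to 8.71) and endothelial markers 7 of 11 (7.49 to 7.87, against 6.85 to 7.09). T cell markers had 7 of 14 called lower (8.35 to 8.69, against 8.94 to 9.01) and NK cell markers 8 of 10 (8.92 to 9.29, against 9.81 to 9.87). Macrophage markers had 3 of 10 called lower (11.48 to 11.91, against 12.13 to 12.20). None of these lists' means overlapped between the groups. Of 5 plasmacytoid DC markers 4 were called lower, and of 11 conventional DC markers none was called (11.79 to 12.12 in asthma-at-risk DCs, against 12.01 to 12.14 in normal DCs). Of 5 follicular dendritic cell markers Clu was called higher (0.97, adjusted p = 0.0258), and of 7 plasma cell and 8 neutrophil markers none was called. In Set 1 no marker of these 11 lists was called but for 2 of 8 neutrophil markers, which were higher, against 0.0707% of all probe sets. All 8 neutrophil markers had positive differences in Set 1 (median 0.84), against 46.5% of all probe sets. Their mean was 11.75 to 12.22 in stimulated asthma-at-risk DCs, against 11.14 to 11.45 in stimulated normal DCs. RMA gives no zeros, so that none of these markers can be said to be absent, and their part in the results for the B cell genes was not tested.

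The next question was the maternal effect before allergen. In naïve DCs, Cr2 was lower in asthma-at-risk pups and was the single member called, 1 of 12, against 0.239% of all probe sets called lower. None was called higher, against 0.102%. Cr2 signals were 9.05, 8.99, 8.92 and 8.88 in naïve asthma-at-risk DCs, against 9.47, 9.55 and 10.00 in naïve normal DCs. The groups did not overlap, and the difference was -0.71 ± 0.10 (log2, SE, 1.64-fold lower, adjusted p = 0.00808). It was -0.55 (adjusted p = 0.00663) without AF79, the highest array, and was not called with only the compared groups in the fit (adjusted p = 0.161). In stimulated DCs of Set 1, Cr2 read 8.70, 8.69, 8.67 and 8.56 in asthma-at-risk pups, against 8.69, 8.56, 8.65 and 8.73 in normal pups. The difference of the 2 maternal effects, stimulated minus naïve, was 0.71 ± 0.14 (SE, adjusted p = 0.0878), or 0.55 without AF79 (adjusted p = 0.0502). None of the 12 was called in that difference, against 0.0486% of all probe sets called higher, and 4 had an unadjusted p under 0.05.

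The other genes were not called between naïve groups. Vpreb3 read 8.13, 8.15, 8.61 and 8.40 in asthma-at-risk DCs, against 7.86, 7.54 and 8.20 in normal DCs (0.46, adjusted p = 0.199). The groups overlapped through AF79 (8.20) alone, and without it the difference was 0.62 (adjusted p = 0.134), still not called. The Cd79b difference was 0.066 (95% CI -0.10 to 0.24) and that of Cd79a -0.056 (95% CI -0.22 to 0.11), or 0.022 and -0.034 without AF79. Blk (-0.16) and the first Ms4a1 probe set (-0.21, or -0.13 without AF79) were lower without overlap, as was Cr2, which makes 3 of 12, against 5.39% of all probe sets. The second Fcer2a probe set was higher without overlap, 1 of 12, against 5.74%. The 2 probe sets of Fcer2a differed in opposite directions (-0.42 and 0.62), and so did those of Cd22 (-0.42 and 0.22). The median over the 12 was -0.086, against 0.0022 over all probe sets.

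Array AF79 stood apart in both of these genes. In it the first Fcer2a probe set exceeded the second by 3.40, against 0.94 to 2.04 in the other Set 1 arrays, and the first Cd22 probe set exceeded the second by 3.06, against 0.97 to 1.49. The beta-actin control signals at the 3′ end exceeded those at the 5′ end by 1.26 in AF79, against 0.36 to 0.61 in the other Set 1 arrays, and those of Gapdh by 1.59, against 0.79 to 1.41. AF79 was the highest Set 1 array in all of these gaps. Without AF79 the naïve differences were -0.16 and 0.36 for Fcer2a and -0.086 and -0.076 for Cd22, none of them called. In Set 2 the asthma-at-risk array AF123 had the widest actin gap (0.82, of a range from 0.42) and the widest Fcer2a gap (2.01, of a range from 0.70). The part of these gaps in the results was not tested.

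**Figure D3:**
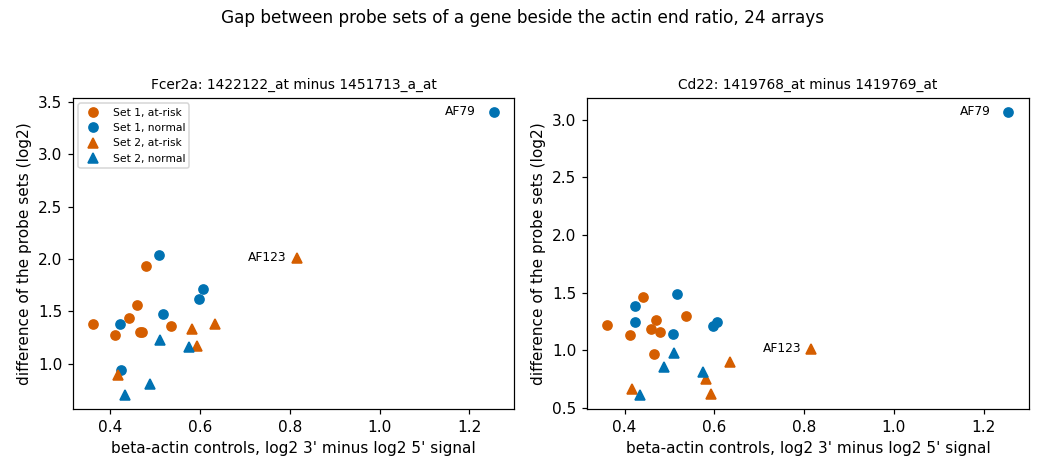
Difference between the 2 probe sets of Fcer2a (left) and Cd22 (right), in log2 units on the vertical axis, beside the difference of 3′ and 5′ beta-actin control signals on the horizontal axis, for 24 arrays by set and maternal status. AF79 stands alone at the upper right of both panels, at 3.40 and 3.06, and AF123 has the widest actin gap of Set 2.

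The last question was how allergen itself changed the genes, within each maternal group of Set 1. These comparisons share arrays with the maternal ones above. In normal pups Cr2 was lower after allergen, at 8.69, 8.56, 8.65 and 8.73 in stimulated DCs, against 9.47, 9.55 and 10.00 in naïve DCs. The groups lay far apart, with a difference of -1.02 ± 0.10 (log2, SE, 2.02-fold lower, adjusted p = 1.13e-05), or -0.86 without AF79 (adjusted p = 6.04e-06). Cr2 was 1 of 12 called lower, against 5.76% of all probe sets. In asthma-at-risk pups it read 8.70, 8.69, 8.67 and 8.56 in stimulated DCs, against 9.05, 8.99, 8.92 and 8.88 in naïve DCs. These groups did not overlap either, but the difference of -0.31 ± 0.09 (SE, adjusted p = 0.0551) was not called. With AF79, an array of neither group, left out of the fit, the difference was -0.31 ± 0.06 (SE, adjusted p = 0.00216). It then passed the adjusted p but not the fold.

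The 2 probe sets of Fcer2a, the CD23 gene, differed in their answer to allergen. In normal pups its second probe set was called higher after allergen (0.72 ± 0.21, SE, adjusted p = 0.0309), 1 of 12, against 5.73% of all probe sets, while the first differed by -0.26 (adjusted p = 0.292). The call was lost without AF79 (0.46, adjusted p = 0.138), AF85 (adjusted p = 0.0892) or AF87 (adjusted p = 0.0769). Without AF79 the first probe set differed by 0.0096, and Cd22 1419769_at was called lower (-0.33, adjusted p = 0.0108), against -0.040 with it. In asthma-at-risk pups none of the 12 was called, against 7.88% of all probe sets in either direction (4.42% higher and 3.46% lower), and 6 had an unadjusted p under 0.05. The first Fcer2a probe set read 7.98, 7.91, 7.95 and 7.92 in stimulated DCs, against 7.39, 7.72, 7.65 and 7.49 in naïve DCs, with no overlap (0.38, adjusted p = 0.125). It was called where AF79, an array of neither group, was left out of the fit (adjusted p = 0.0022). Vpreb3 differed by 0.39 in asthma-at-risk pups (adjusted p = 0.115) and by 0.28 in normal pups (adjusted p = 0.255), or 0.45 without AF79 (adjusted p = 0.0664). The medians over the 12 were 0.12 in asthma-at-risk pups, against -0.015 over all probe sets, and -0.010 in normal pups, against 0.0039 over all.

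Markers of follicular dendritic cells moved in the same comparisons as Cr2. In naïve DCs, 2 of 5 were called lower in asthma-at-risk pups, against 0.239% of all probe sets. They were Mfge8, a bridge for the uptake of dying cells (-0.81, adjusted p = 0.000786), and the chaperone Clu (-1.11, adjusted p = 0.0208). Cxcl13, the chemokine that draws B cells into follicles, differed by -1.09 (adjusted p = 0.0629). Without AF79 these were -0.75 (adjusted p = 0.00496), -0.91 (adjusted p = 0.0875) and -0.92 (adjusted p = 0.196), so that Mfge8 alone was called. After allergen in normal pups, 3 of 5 were called lower, against 5.76% of all probe sets. They were Mfge8 (-1.25, adjusted p = 2.83e-07), Cxcl13 (-2.58, adjusted p = 3.76e-06) and the adhesion molecule Madcam1 (-0.83, adjusted p = 0.0029). Madcam1 was dim, with Set 1 group means from 4.74 to 5.64, near the lower quartile of all probe sets (5.00 to 5.09). The inhibitory receptor Fcgr2b, which B cells share, was called higher (0.38, adjusted p = 0.0191), 1 of 5, against 5.73%. Without AF79 the first 3 were again called lower, by -1.19, -2.42 and -0.70, and Fcgr2b was not called (0.24, adjusted p = 0.0605). In asthma-at-risk pups after allergen the same 3 were called lower, against 3.46% of all probe sets. Cxcl13 differed by -1.18, Mfge8 by -0.45 and Madcam1 by -0.57. Clu was called higher, by 1.02, 1 of 5, against 4.42%. The mean of the 5 markers lay between 8.89 and 9.13 in naïve asthma-at-risk DCs, against 9.44 to 9.79 in naïve normal DCs, and between 8.65 and 9.06 in stimulated asthma-at-risk DCs, against 8.57 to 8.79 in stimulated normal DCs. Between naïve and stimulated asthma-at-risk pups the mean of the 5 thus overlapped. In that comparison Cr2, Cxcl13, Mfge8 and Madcam1 were each lower without overlap, against 8.84% of all probe sets. Clu was higher without overlap, against 8.89%, and Fcgr2b overlapped. T cell markers also differed between naïve groups without overlap, at 9.25 to 9.38 in asthma-at-risk DCs, against 9.62 to 9.71 in normal DCs, with 13 of 14 negative and none called. Of the other lists none had a marker called between naïve groups. The part of these markers in the Cr2 result was not tested. Macrophages express Mfge8 too, and Clu is made by many cells.

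**Figure D4:**
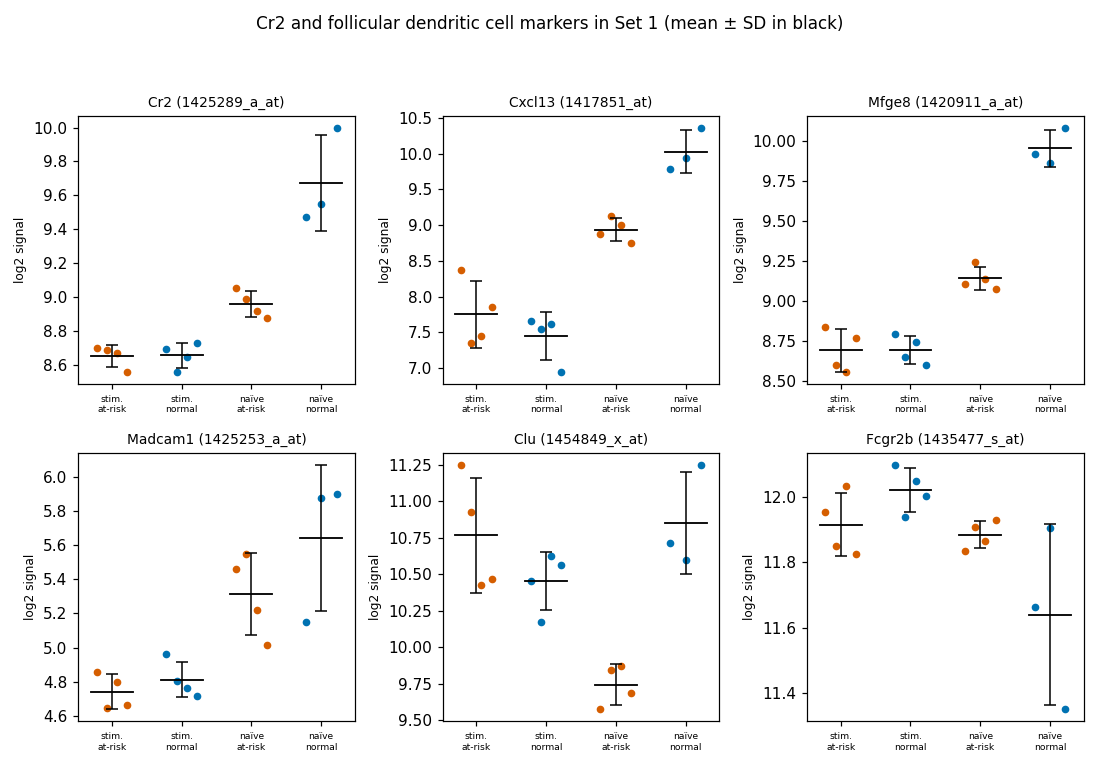
RMA signal (log2, vertical axis) of Cr2 and of the 5 follicular dendritic cell markers listed in the arrays of Set 1, with group mean and SD in black, asthma-at-risk in orange and normal in blue. The 3 naïve normal arrays are the highest in the panels of Cr2, Cxcl13 and Mfge8, while in that of Clu they overlap the stimulated asthma-at-risk arrays, and Fcgr2b is lowest in naïve normal array AF79.

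Markers of other cells changed with allergen in Set 1 as well. In asthma-at-risk pups 10 of 10 platelet, 8 of 8 erythroid, 5 of 11 endothelial and 2 of 8 neutrophil markers were called higher after allergen, against 4.42% of all probe sets. Of T cell markers 11 of 14 were called lower, of NK cell markers 8 of 10, of macrophage markers 3 of 10, of plasmacytoid DC markers 2 of 5, of plasma cell markers 1 of 7 and of endothelial markers 1 of 11, against 3.46%. In normal pups 9 of 10 platelet, 8 of 8 erythroid, 3 of 11 endothelial, 2 of 11 conventional DC and 1 of 8 neutrophil markers were called higher, against 5.73%. Of T cell markers 13 of 14 were called lower, of NK cell markers 7 of 10, of macrophage markers 5 of 10, of neutrophil markers 5 of 8, of plasma cell markers 3 of 7, of plasmacytoid DC markers 2 of 5, and of endothelial and conventional DC markers 1 of 11 each, against 5.76%. Of the 8 early B cell genes, 3 were called higher and 1 lower in asthma-at-risk pups, against 4.42% and 3.46% of all probe sets. In normal pups 3 were also called higher and 1 lower, against 5.73% and 5.76%. Vpreb1 was called higher in both maternal groups, by 1.63 ± 0.16 in asthma-at-risk pups (SE, adjusted p = 7.54e-06) and by 1.80 ± 0.17 in normal pups (SE, adjusted p = 6.79e-06). Igll1 differed by -0.17 and -0.048 and was not called. The part of these markers in the results above was not tested.

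Across the 24 arrays, with each set's mean taken off, the genes did not move as 1 block. The correlation of a gene with the mean of the other 8 was 0.89 for Fcer2a, 0.78 for Blk, 0.77 for Ms4a1, 0.75 for Cd79a, 0.62 for Cd22, 0.48 for Cd79b, 0.42 for Vpreb3, 0.32 for Cr2 and 0.15 for Pax5 (Pearson, a description, over arrays that share groups and RNA quality). With each group's mean taken off instead, the order differed, at 0.69 for Fcer2a, 0.64 for Ms4a1, 0.55 for Cd22, 0.51 for Cr2, 0.42 for Blk, 0.29 for Vpreb3, 0.22 for Cd79a, 0.068 for Cd79b and -0.027 for Pax5. By both measures Fcer2a 1422122_at was most tied to the rest and Pax5 least. These values are for the probe set of highest mean of each gene. The 2 probe sets of Fcer2a correlated with each other at 0.096 with set means taken off and -0.16 with group means taken off. Those of Cd22 did so at -0.29 and -0.78, and those of Ms4a1 at 0.74 and 0.73. All the correlations given here include AF79, whose gap between the Cd22 probe sets was 3.06, against 0.97 to 1.49 in the other Set 1 arrays. The part of this array in them was not tested. The genes outside the 9 whose signal followed the mean of the 9 most closely were Endou (0.89), Srpk3 (0.89), Tnfrsf13c (0.88), Il5ra (0.88), Ralgps2 (0.87), Antxr1 (0.87), Gga2 (0.85), Chchd10 (0.85), Sbk1 (0.83) and Ess2 (0.83). They were picked on the same arrays, so that their differences are a description of that choice, at 0.40 to 0.88 between asthma-at-risk and normal DCs of Set 2 and -0.086 to 0.24 in Set 1.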

How the data were processed

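The authors deposited 1 table of RMA signals, an intensity per Affymetrix probe set on a linear scale, for 24 arrays. RMA's version was not given in the sources used here. By the methods each set was preprocessed on its own with a RefSeq-based probe set definition, while the deposited table holds 22690 Affymetrix probe sets. After 64 controls were left out, log2 of 22626 was taken with no pseudocount. Of these, 20380 carried 1 gene symbol in the platform annotation, 691 several and 1555 none. The number of arrays limits the precision.

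Groups came from the labels. Linear models with moderated variance were fitted with limma (version 3.58.1, under R 4.3.3), the tool the methods name, with group means of the 15 Set 1 arrays, of the 9 Set 2 arrays, or of the 17 stimulated arrays with set as a term. Benjamini-Hochberg adjustment ran over all probe sets. The fits were tested on simulated data with known changes. A gene with several probe sets is represented by that of highest mean. Named beside the 9 genes were at most 4 called genes per list and comparison, 6 fixed B cell genes, and the 10 genes most alike. The other list members given were chosen after their values were seen. The members and lists were chosen with earlier results of these data known. Alternatives were array weights, a moderated trend, other normalizations, a filter at the 40th percentile, a pseudocount of 16, 1 probe set per gene, other sets of arrays in the fit, and each array left out.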

Additional observations from a re-analysis of the deposited data

Results flagged for a closer look

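Of 60 groups of 4 or 5 arrays looked at, 5 held an array far from the rest of its group by Dixon's criterion, which chance meets in about 1 in 20 groups. In stimulated asthma-at-risk DCs of Set 2, Fcer2a 1451713_a_at read 7.41 in AF123, against 8.31 to 8.59 in the others, and Blk read 11.50 in AF125, against 11.69 to 11.75. In stimulated normal DCs of Set 2, Ms4a1 1450912_at read 12.16 in AF118, against 12.24 to 12.26. In Set 1, Cd79b read 12.53 in stimulated asthma-at-risk array AF88, against 12.25 to 12.27, and Cd79a read 11.03 in naïve asthma-at-risk array AF80, against 11.21 to 11.22.

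The maternal effect on Fcer2a 1422122_at in stimulated DCs differed between the sets, by 0.62 for Set 2 minus Set 1 (limma adjusted p = 0.0259). By the methods the sets differ in amplification and were preprocessed separately, and these cannot be told apart from other differences between them.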

How the results depend on the processing

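Of 2368 values recomputed for single probe sets, 2257 kept their direction and their side of the thresholds, 28 lost the call, 43 gained it and 40 changed sign. The sign changes fell on 15 results, none of them called with either sign, and reached at most 0.12 in size after the change. With array weights they were Cd22 1419769_at between naïve groups (-0.034) and after allergen in asthma-at-risk pups (0.0068), in Set 1 Fcer2a 1451713_a_at (-0.077) and Cr2 (0.0053), and Vpreb3 for stimulated minus naïve (-0.099). Quantile normalization and median centring turned Fcer2a 1451713_a_at in Set 1 (-0.0084 and -0.0018), and median centring turned Blk after allergen in normal pups (-0.012). Over the arrays left out in turn, Cd22 1419769_at ranged from -0.076 to 0.37 between naïve groups, from -0.049 to 0.054 after allergen in asthma-at-risk pups, from -0.33 to 0.11 in normal pups and from -0.12 to 0.33 for stimulated minus naïve. After allergen in normal pups Fcer2a 1422122_at ranged from -0.42 to 0.0096 and Blk from -0.018 to 0.066, and in asthma-at-risk pups Ms4a1 1450912_at from -0.031 to 0.098. In Set 1 the ranges were -0.11 to 0.14 for Fcer2a 1451713_a_at, -0.035 to 0.029 for Cr2, -0.13 to 3.7e-05 for Ms4a1 1450912_at, -0.042 to 0.079 for Ms4a1 1423226_at, -0.066 to 0.055 for Pax5 and -0.020 to 0.064 for Blk. For stimulated minus naïve they were -0.033 to 0.077 for Cd79b and -0.057 to 0.27 for Vpreb3. Counts of member probe sets called moved by more than 1.5 times as follows. In naïve DCs the count was 0 with only the compared groups. In stimulated DCs of both sets it was 5 with no fold threshold, 0 with no term for set and 1 with set as a random block. In Set 2 it was 8 with array weights. After allergen in asthma-at-risk pups it was 1 with only the compared groups, 2 with array weights and 1 with median centring, and in normal pups 1 with only the compared groups and 1 with 1 probe set per gene. The difference of maternal effects, stimulated minus naïve, gave 1 with array weights. That of Set 2 minus Set 1 gave 4 with array weights, and 2 each with a moderated trend, quantile normalization, the filter on dim probe sets, 1 probe set per gene and the pseudocount. Leaving out each array in turn gave 1 to 1 in naïve DCs, 2 to 3 in stimulated DCs of both sets, 0 to 0 in Set 1, 1 to 8 in Set 2, 0 to 1 after allergen in asthma-at-risk pups, 1 to 3 in normal pups, 0 to 0 for stimulated minus naïve, and 0 to 4 for Set 2 minus Set 1. The cause of these changes was not tested. No paired analysis was possible because neither the labels nor the methods give the litter or the mother of a pup. Pax5, near the lower quartile of signal, could show little.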
